A study of Gallus gallus with 4 samples.

Results

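Of 18973 rows in the expression table of chicken breast muscle, 1965 had a dash in place of a gene name. These loci were chosen by that dash alone, and each is known only by its identifier, which begins with XLOC, and by its chromosome, start and end. The other rows carried a single gene name (13294), an Ensembl identifier (3350) or several names (364). RNA came from the pectoralis muscle of Isfahani native chickens and of Ross 708 broilers, a commercial line bred for fast growth, at day 28 after hatching. For each breed 2 libraries were made, every one from the mixed RNA of 3 birds, with no treatment and no sex given in the labels. The table gives 1 FPKM value per breed, a level per length of transcript and per size of library, and these authors' values have no SD or n. Its breed names are "Native" and "Commercial", and "Commercial" was read as Ross 708, the only other breed in the labels. Differences between single birds are hidden in the pools, and fewer cells of a type cannot be told apart from less RNA per cell.

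Programs that assemble transcripts from aligned reads give each transcribed stretch an identifier and add a gene name only where it is matched to an annotated gene. A stretch can overlap the span of a named gene and still have no name. Loci without a name can therefore be genes that an annotation lacks, ends of known genes that reach past their annotated limits, long noncoding RNAs, or unspliced fragments of other transcripts. Chicken breast muscle consists almost wholly of fast fibres, and a few contractile and metabolic genes take up much of its RNA.

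The tissue label was checked against 23 fibre genes, of which 14 had a row. The authors tested 8 of these, and the other 6 carry the status HIDATA and have no test. ACTN2, a Z-disc actinin, was the highest tested one at 2234 FPKM in Isfahani against 2559 in Ross 708. The tested fibre genes summed to 4943 and 5751 FPKM, a sum that lacks the 6 with HIDATA. The summed FPKM of other marker lists was 2220 and 2879 for leukocytes, 111 and 407 for adipocytes, 46.0 and 62.0 for endothelium, and 24.0 and 40.3 for smooth muscle. CD74 alone made up 2138 and 2734 FPKM of the leukocyte sums, and FABP4 86.7 and 320 FPKM of the adipocyte sums. No erythroid marker was tested. The 16 rows of chromosome W, the 6 of the mitochondrial genome and all 1186 on linkage groups and unplaced scaffolds were untested. Among these rows a single one, on W, was above 0. No locus without a name lay on them, so the 1965 loci were spread over 29 chromosomes.

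Loci without a name were short, and those tested were mostly at lower levels than tested named rows. Their median span, from start to end as deposited and introns included, was 2112 bases, against 17794 for named rows. The authors tested 1191 of them (60.6%), beside 61.4% of named rows. The latter share mixed 71.2% of rows with a single name, 18.6% of those with an Ensembl identifier and 94% of those with several names. It also includes the untested rows of W, the mitochondrial genome, linkage groups and scaffolds, where no locus without a name lies. Within chromosomes 1 to 5, 6 to 10, 11 to 28 and Z, 62.3% to 68.5% of named rows were tested. For loci without a name these shares ran from 57% to 65.4%. The median level of a tested locus without a name was 1.499 FPKM in Isfahani and 1.39 FPKM in Ross 708, against 7.90 and 7.91 for named rows. Rows with an Ensembl identifier lay in between, with a median span of 5064 bases and, where tested, median levels of 4.16 and 4.75 FPKM. The mean of the breeds was under 2 FPKM for 60.3% of tested loci without a name and for 16.4% of tested named rows. At the other end, 176 loci reached a mean of 10 FPKM, and 31 of these reached 100 FPKM. The 774 untested loci had medians of 0.387 FPKM in Isfahani against 0.328 in Ross 708, while untested named rows had a median of 0 in both. None of the 1965 loci was at 0 in both breeds. A locus without a gene name can be listed only where reads were assembled, while a named row may come from an annotation alone. Neither this nor the median of 0 for untested named rows is therefore read as a difference in level.

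The identifier numbers followed an order that went with span and level. On each of the 29 chromosomes, positions rose through 3 series of consecutive numbers, falling back to a lower position between series. The first and second series held nearly all named rows, 7922 and 7869, and a small part of the loci without a name, 347 and 341. The last series held 1277 loci without a name, 65.0% of them all, and only 9 named rows. The table gives no strand, and what sets the series apart was not tested. Loci of the last series had a median span of 1502 bases, and 49.6% of them were tested. Those of the first and second series had a median span of 5893 bases, and 81.1% were tested. Median levels of tested loci were 1.03 FPKM for Isfahani and 1.06 for Ross 708 in the last series, against 2.78 and 2.49 in the other series.

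**Figure D1:**
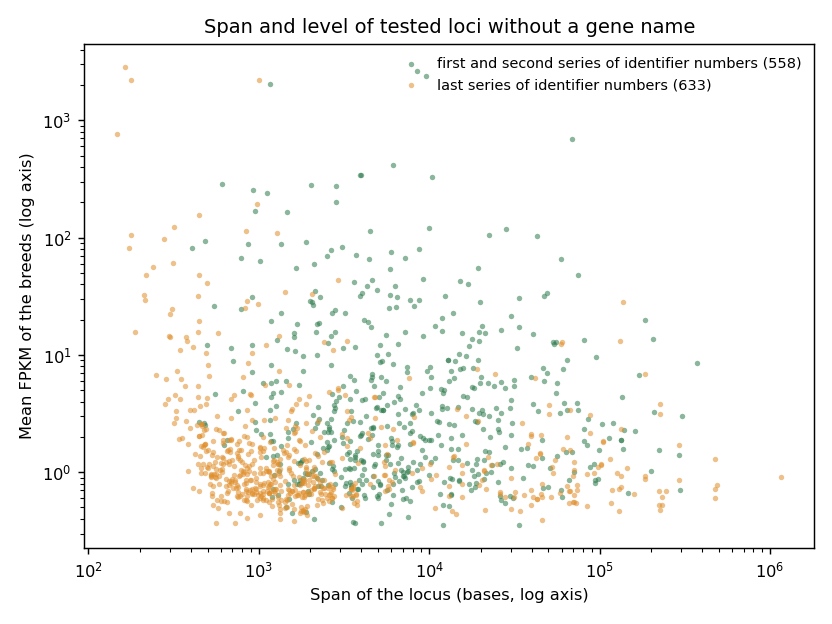
Each point is a tested locus without a gene name, with its span in bases on the horizontal log axis and the mean FPKM of the breeds on the vertical log axis. Loci of the last series of identifier numbers (633, orange) crowd at short spans and low levels, apart from a few under 200 bases that stand among the highest and some very wide loci, while those of the first and second series (558, green) lie mostly at wider spans.

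Loci without a name lay close to named rows or far into gaps between them. Of the 1965, 287 overlapped the span of a named row and 487 lay within 1000 bases of one. A further 574 lay over 1000 and up to 5000 bases away, 356 lay beyond that and up to 20000 bases away, and 261 lay farther still. Counting rows of any kind, 399 loci overlapped another row, and all 399 had a start and end identical to those of another row. The deposited coordinates of such loci may be those of a shared region, so their own spans are not known. By chromosome, the share of loci without a name among all rows was 14.2% on Z, 13.2% on chromosome 16 and 13.1% on chromosome 1. It was lowest on chromosomes 26 and 21 (6.12% and 6.41%).

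Together these loci held 4.99% of the summed FPKM in Isfahani and 4.98% in Ross 708, over the 18933 rows with the status OK (tested) or NOTEST. Their 10 highest members made up 60.4% and 62.7% of that part. The 40 rows left out of this sum include 39 with the status HIDATA, all named, of which 39 are listed at 0 in Isfahani and 10 in Ross 708. With them the shares were 4.99% and 4.39%, and since none of the 39 is above 0 in Isfahani, the latter shares are not comparable between the breeds. The highest 10 by mean level did not differ between the breeds by the authors' test, with q-values from 0.0653 to 0.992 in the authors' deposited table. XLOC_008025 (chromosome 2, 98601646 to 98601811), which spans 165 bases, stood at 3078 FPKM in Isfahani against 2630.4 in Ross 708. XLOC_011761 (chromosome 3, 104125581 to 104134039), whose coordinates are shared with another row and overlap the row of AGBL5, stood at 2789.8 and 2501 FPKM. Very short spans recurred among these high loci: XLOC_002517 (178 bases, 2357 and 2089 FPKM) lies 716238 bases from its nearest named row, and XLOC_002521 (148 bases) stood at 616 and 923 FPKM. FPKM divides by transcript length, so the level of a locus that is shorter than usual sequencing fragments is less certain.

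Some of the highest loci lie in intervals where a newer annotation lists a gene that has no row of its own in the table. For each locus the nearest single-name rows on either side were looked up in RefSeq (GRCg7b), and the genes between them were read off. This gives neighbours by order alone, no locus was matched to a gene by sequence, and a listed gene may be in the table under an older symbol. XLOC_000745 (chromosome 1, 105226709 to 105236269), at 2379.8 FPKM in Isfahani against 2361 in Ross 708, lies between KCNE2 and C21orf140, where RefSeq lists 1 gene, SMIM11, which encodes a small membrane protein. XLOC_002639 (chromosome 10, 3643763 to 3647758), at 393 and 295 FPKM, lies between RAB8B and LACTB, where RefSeq lists only RPS27L, a relative of the ribosomal protein gene RPS27. No other named row lies between the flanks of either locus.

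The intervals of other high loci list several genes each. XLOC_008245 (chromosome 20, 11230708 to 11231864) stood at 2023 FPKM in Isfahani against 2059 in Ross 708, between ZNF831 and TUBB1. That interval holds 4 RefSeq genes, of which ATP5E, the epsilon subunit of ATP synthase, was not found in the table by name, although 2 other named rows lie there. XLOC_000393 (chromosome 1, 57069348 to 57138557) stood at 708 and 682 FPKM and overlaps the row of BRAF, at coordinates it shares with another row. Its interval holds 4 genes, among them NDUFB2, a subunit of respiratory complex I. The remaining members of the 10 highest are XLOC_002475 (1983 and 2464 FPKM), near a row with several Ensembl identifiers, and XLOC_011127 (299 and 539 FPKM). The latter lies between CCDC25 and SLC35F6, where the gene of the secreted chaperone clusterin, CLU, is among 3 listed genes.

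Over all 1965 loci, 1582 had flanking rows on 1 RefSeq chromosome with an interval width within 2 times that in the table. In 505 of these (31.9%) the interval held at least 1 named coding gene without a row, and in 280 (17.7%) the listed genes included long noncoding RNAs and no coding gene. In 315 (19.9%) RefSeq listed no gene. A coding gene counted as without a row when its symbol, its synonyms and its Ensembl identifiers were all absent from the table. A match anywhere in the table, also outside the interval, counted as a row, so some genes may be wrongly counted as having one. Older symbols are missed by this rule: RefSeq lists HACD1 and MTCL1 where the table has rows under their former names PTPLA and SOGA2. With the stricter condition that no other named row reaches between the flanks, 137 of the 1582 intervals (8.66%) held such a gene, and 123 held exactly 1. Among called loci the stricter count was 10 of 53 (18.9%), and among loci tested and not called 97 of 903 (10.7%). Without the stricter condition the order was reversed, at 17 of 53 (32.1%) and 338 of 903 (37.4%). Intervals with long noncoding RNAs and no coding gene made up 32.1% for called loci and 16.3% for loci not called. These differences were not tested.

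The breeds were compared with the authors' q-values, called at or under 0.05. Of 1191 tested loci without a name, 65 (5.46%) were called, beside 5.21% of all 11626 tested rows, so the share of calls was near the background. Of the 65, 39 were higher in Isfahani and 26 in Ross 708, so that 40.0% of the calls had the higher value in Ross 708. Over all tested rows 2.14% were called higher in Isfahani and 3.07% higher in Ross 708, and 58.9% of those calls went to Ross 708. Among tested rows with a name 5.18% were called, 2.01% higher in Isfahani and 3.17% higher in Ross 708. These named rows were not alike. Of 624 tested rows with an Ensembl identifier 39 were called (6.25%), 21 higher in Isfahani and 18 in Ross 708. Thus 46.2% of their calls went to Ross 708, beside 62.2% for rows with a single name. The median log2 ratio of all tested loci without a name was -0.054, beside -0.034 for all tested rows. A log2 ratio here compares the breeds after adding 1 FPKM to each, with Isfahani as the denominator: a positive one means more in Ross 708, and the change of a low locus is understated. Without the 22 calls that are listed at 0 in a breed, 24 were higher in Isfahani and 19 in Ross 708. The difference between the split of calls here and that over all rows was not tested.

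**Figure D2:**
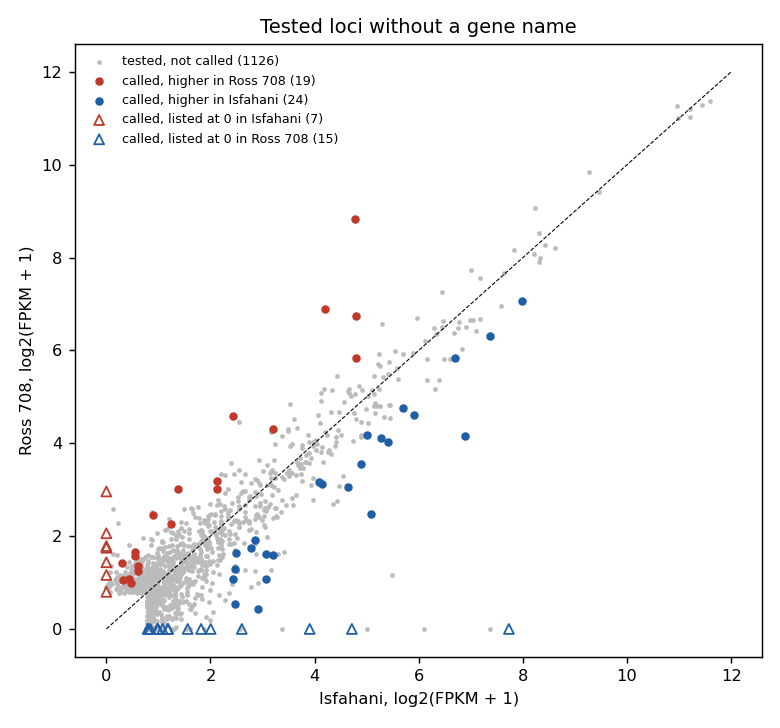
Each of the 1191 tested loci without a gene name is a point, with log2(FPKM + 1) in Isfahani on the horizontal and in Ross 708 on the vertical axis. Called loci higher in Ross 708 (red) and in Isfahani (blue) lie off the dashed line of equal levels, triangles on the axes mark the 22 calls listed at 0 in a breed, and the highest loci lie near the line.

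The largest ratio among calls above 0 in both breeds belonged to XLOC_009442 (chromosome 25, 743496 to 744607), at 26.2 FPKM in Isfahani against 451 in Ross 708 (log2 ratio 4.05, q = 0.00245 in the authors' deposited table). Its nearest named row, 2592 bases away, is S100A9, a calcium-binding protein gene of myeloid cells in mammals, which stood at 6.43 and 17.3 FPKM and missed the threshold (q = 0.0875). XLOC_008132 (chromosome 20, 5515130 to 5515911) stood at 17.3 and 117 FPKM (log2 ratio 2.69). It lies between MATN4 and KCNS1, where RefSeq lists 1 gene, PI3, that has no row in the table, and no other named row lies there. In the same pools the leukocyte markers had a median log2 ratio of 0.59, with 2 of 8 called higher in Ross 708, and the adipocyte markers had one of 1.87, with 4 of 5 called higher. Most other lists leaned the same way. Medians were 0.08 for fibre markers (3 of 8 called higher in Ross 708), 0.47 for smooth muscle (1 of 3) and 0.40 for endothelium (0 of 6). The 1 tested nerve marker had a ratio of -0.20 and was not called. The part of other cell types in these results was not tested.

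Other loci were called higher in Ross 708 beside named rows with little difference. XLOC_004596 (chromosome 14, 4325562 to 4343414) stood at 4.40 and 23.0 FPKM (log2 ratio 2.15). It lies 182 bases from ARPC1A, an actin-nucleation subunit gene that had 96.9 and 92.0 FPKM and was not called. XLOC_018245 (Z, 43611655 to 43616095) stood at 26.6 and 106 FPKM (log2 ratio 1.95) and lies 19541 bases from the row named GADD45B, a growth-arrest gene, at 10.97 and 10.8 FPKM. Between its flanks, SEMA4D and DIRAS2, RefSeq lists 5 genes, of which the only coding one is GADD45G. Only 1 other named row lies there, and whether the row named GADD45B is that of GADD45G was not checked. Neither ARPC1A nor the row named GADD45B was called.

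Wide and moderate loci were also called higher in Ross 708. XLOC_006462 (chromosome 2, 12506058 to 12640485) had the widest deposited span of all calls, 134427 bases, at coordinates it shares with another unnamed row. It stood at 1.58 and 7.13 FPKM (log2 ratio 1.65). Its nearest named row lies 121287 bases away. XLOC_009560 (chromosome 25, 1266593 to 1267869) stood at 8.24 and 18.8 FPKM, beside the mevalonate pathway gene PMVK, at 7.14 and 11.6 FPKM and not called. XLOC_012587 (chromosome 4, 1963629 to 1967250) stood at 26.9 and 56.4 FPKM, 1187 bases from the vesicle traffic gene RAB9B, which had 8.99 and 6.02 FPKM and was not called. XLOC_006282 (chromosome 19, 6716459 to 6772437) stood at 3.36 and 8.10 FPKM between ASPA and AKAP10, where RefSeq lists only SPATA22. XLOC_004787 on chromosome 14 stood at 3.34 and 7.02 FPKM, 847 bases from a group of 10 rows that includes the complex III gene UQCRC2. Of the calls that reached 5 FPKM in a breed, 10 were higher in Ross 708, and 1 of these is listed at 0 in Isfahani.

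In the other direction, 3 loci above 0 in both breeds had log2 ratios under -2, and none lies within 5 kb of a named row. XLOC_000166 (chromosome 1, 32561735 to 32568959) stood at 117 FPKM in Isfahani against 16.8 in Ross 708 (log2 ratio -2.73, q = 0.00245 in the authors' deposited table). It lies 105760 bases from FAM19A2, and RefSeq lists 2 genes between its flanks, both long noncoding RNAs. XLOC_014295 (chromosome 5, 59544674 to 59546919) stood at 32.7 and 4.55 FPKM (log2 ratio -2.60), 113451 bases from LRFN5. XLOC_007215 (chromosome 2, 15726196 to 15733373) stood at 6.53 and 0.349 FPKM (log2 ratio -2.48), 8506 bases from the vesicle traffic gene RAB18, which had 70.9 and 59.4 FPKM and was not called.

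Other loci higher in Isfahani reached from a few FPKM to over 100. XLOC_012259 (chromosome 4, 38811219 to 38816556) stood at 7.43 and 2.06 FPKM (log2 ratio -1.46). It lies 1362 bases from SLC25A4, the muscle exchanger of ADP and ATP in the mitochondrial membrane, which stood at 3116 and 1711 FPKM and missed the threshold (q = 0.142). XLOC_008724 (chromosome 21, 4838697 to 4840869) stood at 23.9 and 7.27 FPKM between OTUD3 and PLA2G5. RefSeq lists 2 coding genes there, among them the phospholipase gene PLA2G2E. Its symbol, a synonym or its Ensembl identifier was found in the table, but no other named row lies between these flanks. Whether the row so found is that of PLA2G2E was not checked. XLOC_016574 (chromosome 9, 8433015 to 8452860) stood at 41.6 and 15.2 FPKM, and XLOC_012512 (chromosome 4, 84891536 to 84901450) at 165 and 78.8 FPKM. Between the flanks of XLOC_012512, FGFRL1 and ST3GAL5, RefSeq lists 2 genes, of which ATOH8, a transcription factor gene, is the coding one and has no row. XLOC_007025 on chromosome 2 (8.22 and 2.00 FPKM) and XLOC_000806 on chromosome 1 (7.36 and 1.10 FPKM) were also called higher in Isfahani.

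Among the calls that the naming rule did not take were 20 loci, and those given here were chosen after their values were seen. XLOC_014964 (chromosome 6, 11026295 to 11027271) had the highest Isfahani level of all calls, 253 FPKM against 133 in Ross 708 (log2 ratio -0.93, q = 0.0363 in the authors' deposited table). It lies between DNAJB12 and ANAPC16, where RefSeq lists 1 gene, DDIT4, a stress-induced inhibitor of the growth kinase mTORC1, and DDIT4 has no row in the table under that name. XLOC_004129 (chromosome 13, 1802057 to 1806374) stood at 50.8 and 26.1 FPKM between DNAJC18 and MZB1, where RefSeq lists only PROB1. XLOC_007584 (chromosome 2, 79788050 to 79805143) stood at 16.0 and 7.96 FPKM between NSUN2 and MED10, where it lists only UBE2QL1, related to ubiquitin-conjugating enzymes. All 3 were higher in Isfahani. No other named row lies in these 3 intervals, and none of the loci was matched to these genes by sequence. Others of the 20 were higher in Ross 708, among them XLOC_011646 (0.858 and 4.52 FPKM) and XLOC_011934 (0.238 and 1.67 FPKM).

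**Figure D3:**
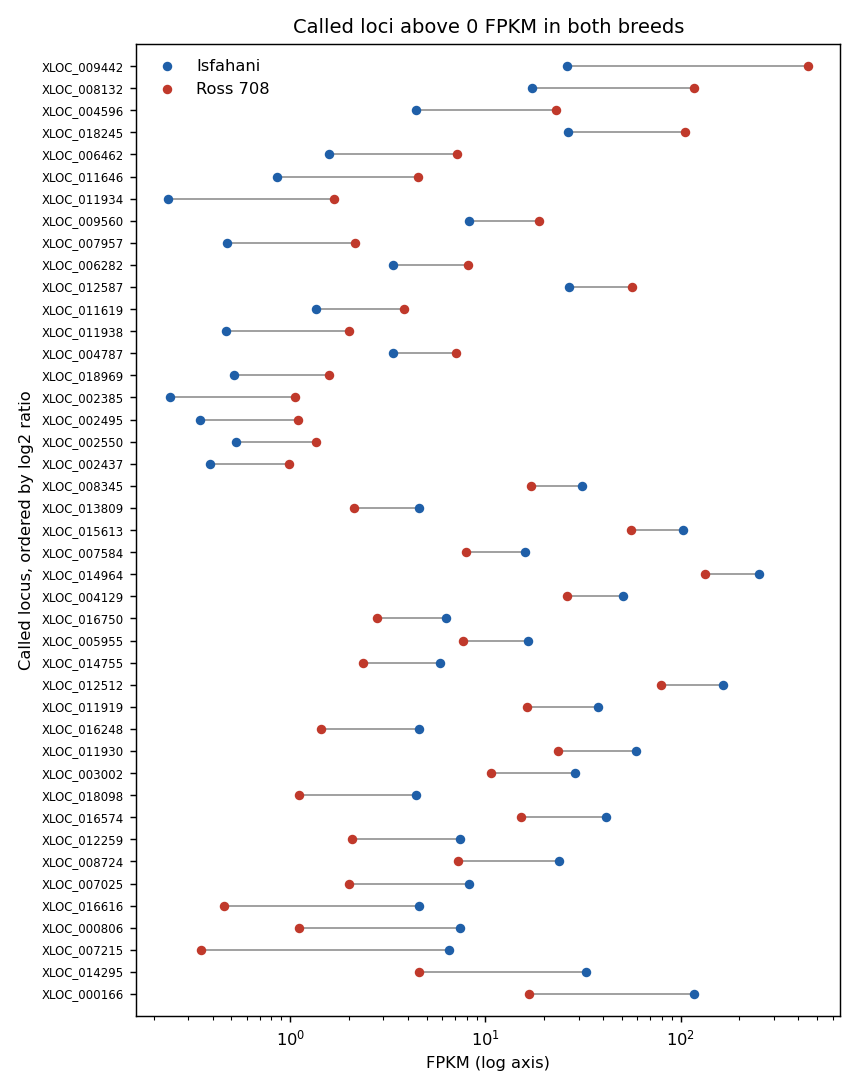
Each row is one of the 43 called loci above 0 FPKM in both breeds, ordered by log2 ratio, with FPKM on a log axis in Isfahani (blue) and Ross 708 (red). The 19 loci higher in Ross 708 reach from under 1 FPKM to 451 FPKM, and the 24 higher in Isfahani lie above 4 FPKM in Isfahani.

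Calls listed at 0 in a breed were frequent. They made up 22 of 65 calls without a name (33.8%) and 5 of 541 named calls (0.924%). Among all tested rows, 41 of 1191 loci without a name and 12 of 10435 named rows were listed at 0 in a breed. Rows with and without a name may be listed for different reasons, and what sets these shares apart was not tested. Of the 22 calls, 15 were listed at 0 in Ross 708 and 7 in Isfahani. An exact 0 in such a table can be a failed estimate, so no fold is given. Levels in the other breed were mostly low, under 2 FPKM in 12 of the 22, and the ranges were 0.733 to 211 FPKM in Isfahani and 0.74 to 6.78 FPKM in Ross 708.

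The highest of these was XLOC_003479 (chromosome 11, 1768532 to 1768710), which spans 178 bases, 154 bases from ST3GAL2 and PDPR, at 211 FPKM in Isfahani but listed at 0 in Ross 708 (q = 0.0285 in the authors' deposited table). On Z, XLOC_018399 (77548094 to 77550644) stood at 25.3 FPKM in Isfahani, and XLOC_018400 (77971843 to 78020998) at 14.0 FPKM, both listed at 0 in Ross 708. Both lie between KCNN2 and MIR31, the nearest rows matched to RefSeq, where RefSeq lists 158 genes, 44 of them coding, including several ADCY10-like copies. Reads from near-identical copies can be shared. Whether either locus belongs to such a copy was not tested, so how certain these values are is not known. The sex of the pooled birds is not given and rows of W were untested, so sex could not be set beside the Z loci. The remaining loci listed at 0 in Ross 708 include XLOC_008120 on chromosome 20 (5.07 FPKM in Isfahani), XLOC_002509 on chromosome 1 (3.01 FPKM) and XLOC_013111 on chromosome 4 (2.53 FPKM).

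Of the loci listed at 0 in Isfahani, XLOC_013191 (chromosome 4, 18735755 to 18736147) was the highest in Ross 708, at 6.78 FPKM. An adjacent pair followed: XLOC_014938 (chromosome 6, 31454808 to 31489169), at 3.17 FPKM in Ross 708, and XLOC_014994 (31454085 to 31454730), at 2.45 FPKM. Only 78 bases separate them, between CHST15 and OAT, where RefSeq lists 2 long noncoding RNAs and no coding gene. XLOC_005580 on chromosome 17 stood at 2.36 FPKM in Ross 708, XLOC_012150 on chromosome 4 at 1.71, XLOC_006421 on chromosome 2 at 1.24 and XLOC_001000 on chromosome 1 at 0.74. All 7 had q = 0.00245 in the authors' deposited table, the smallest value it holds.

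The share of calls was higher among loci far from named rows. None of the 172 tested loci that overlapped a named row was called, against 14 of 347 (4.03%) at 1 to 1000 bases and 12 of 309 (3.88%) from there to 5000 bases. The share was 17 of 194 (8.76%) from there to 20000 bases and 22 of 169 (13.0%) beyond. Of those 22 distant calls, 11 were listed at 0 in a breed. Median levels of tested loci differed little between these classes, from 1.11 to 1.77 FPKM in Isfahani and from 1.32 to 1.54 FPKM in Ross 708. Loci that overlapped a named row had a start and end shared with another row, so that class differs from the others in more than distance. Without the loci that overlap any other row, 6.58% of those tested were called. The trend with distance was not tested, and it is to be read against the 5.21% of all tested rows.

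**Figure D4:**
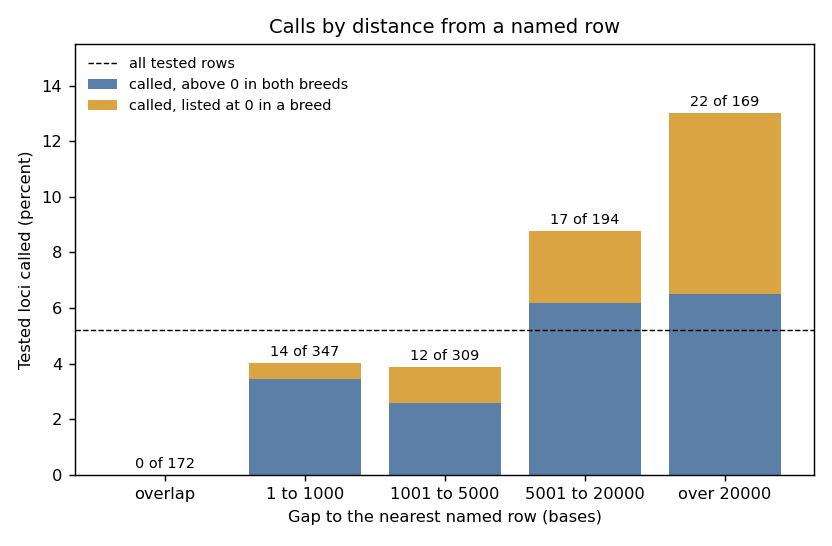
Bars give the percent of tested loci without a name that were called, by the gap in bases to the nearest named row, split into calls above 0 in both breeds and calls listed at 0 in a breed. The number of calls and of tested loci stands above each bar, from 0 of 172 for overlapping loci to 22 of 169 beyond 20000 bases, and the dashed line is the 5.21% of all tested rows.

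Named rows beside called loci were then looked up. Of the 65, 26 had a named row within 5 kb, which was tested in 21 cases and called in 2 (9.52%). Among tested loci that were not called, 42 of 724 tested named rows within 5 kb were called (5.8%), and with 2 cases nothing is read from the difference. In 1 of the 2 cases the directions were the same. XLOC_011919 (chromosome 3, 66783152 to 66784141), 315 bases from FOXO3, stood at 37.9 FPKM in Isfahani against 16.4 in Ross 708, and FOXO3, a transcription factor that drives protein breakdown in wasting muscle, stood at 24.0 and 11.6 (q = 0.0184). Both were higher in Isfahani, with log2 ratios of -1.16 for the locus and -0.99 for the gene. In the other case XLOC_011938 (chromosome 3, 87566991 to 87569346), 79 bases from KLHL31, stood at 0.47 and 1.99 FPKM (q = 0.0465), while KLHL31, a muscle gene of the Kelch-like family, stood at 421 and 196 (q = 0.0455). There the locus was higher in Ross 708 and the gene in Isfahani.

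Within 20 kb 1 more pair appeared, XLOC_013809 on chromosome 5 (4.59 and 2.12 FPKM) and the phospholipase gene PLCB2 (1.20 and 2.51 FPKM), again in opposite directions. For 28 calls above 0 in both breeds the nearest named row was tested and lay within 20 kb. Of these calls, 19 had the same sign of ratio as that row, and in 17 the row's own log2 ratio was within 0.5 of 0. Counting all called loci within 20 kb, those listed at 0 included, the sign was shared in 21 of 37 cases (56.8%), and for loci not called in 523 of 867 (60.3%). Within 5 kb, only loci whose nearest named row was itself tested were counted. The sign was shared in 443 of 724 cases (61.2%) for tested loci that were not called, and in 13 of 21 (61.9%) for called loci.

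**Figure D5:**
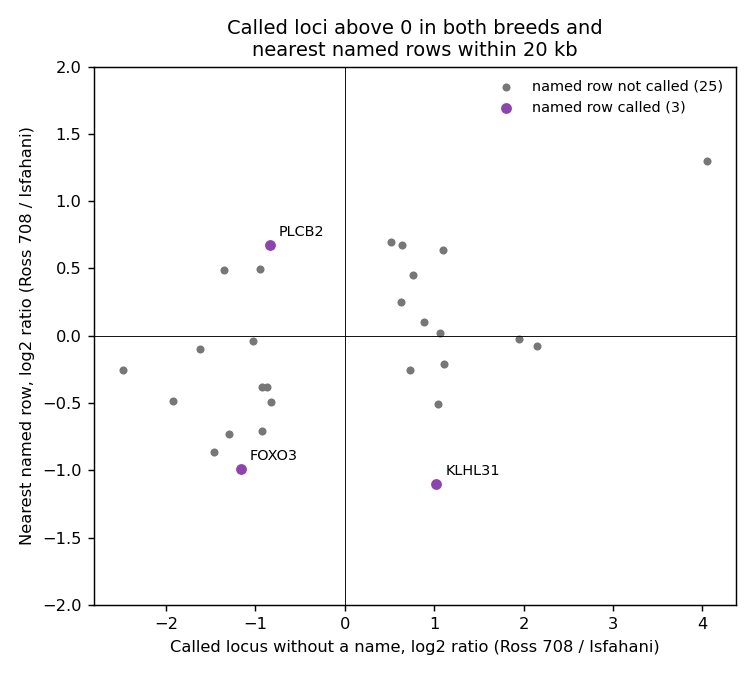
Each of 28 points is a called locus above 0 in both breeds whose nearest named row was tested and lies within 20 kb. The log2 ratio of the locus is on the horizontal axis and that of the named row on the vertical axis. Of the named rows 17 lie within 0.5 of 0 on the vertical axis, and the 3 that were called themselves (FOXO3, KLHL31 and PLCB2) are named.

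Called loci that lay close together were few. Among 547 pairs of tested loci without a name within 100 kb of each other, 319 (58.3%) had ratios of the same sign, and 3 pairs had both members called. Besides the pair on chromosome 6, XLOC_000806 and XLOC_001932 on chromosome 1, 52200 bases apart, were both higher in Isfahani (XLOC_001932 at 0.754 FPKM and listed at 0 in Ross 708). XLOC_007215 and XLOC_007957 on chromosome 2, 27659 bases apart, went in opposite directions, at 6.53 and 0.349 FPKM and at 0.473 and 2.15 FPKM. This window of 100 kb was chosen after the data had been seen.

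Ratios varied with span and chromosome. Loci of 200 up to 500 bases had a median log2 ratio of -0.44, with 56 of 78 lower in Ross 708 in value, and those from 500 up to 1000 bases one of -0.19, with 111 of 176 lower. From 1000 up to 5000 bases the median was 0.031, and for 5000 or more it was -0.0043, a value whose sign turned under rescaling, under centring and without loci listed at 0. Tested named rows from 500 up to 1000 bases, 37 in number, had a median of 0.25. By chromosome, loci on 6 to 10 had a median of -0.19, with 10 of 12 calls higher in Isfahani, those on 1 to 5 one of 0.011, with 18 of 33, those on 11 to 28 one of -0.075, with 8 of 15, and those on Z one of -0.076, with 3 of 5. Medians of named rows in these chromosome groups ran from -0.039 to -0.024. Of the calls among named rows, 36 of 93 on 6 to 10 and 101 of 251 on 1 to 5 were higher in Isfahani. On 11 to 28 it was 62 of 167, and on Z 11 of 30. Calls made up 6.32% of tested loci without a name on 6 to 10, 5.73% on 1 to 5, 4.36% on 11 to 28 and 6.17% on Z. Among tested named rows these shares were 5.46%, 5.39%, 4.71% and 5.6%. No test was made of these differences, since single values per breed leave no spread between pools to set them against.

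By series of identifier numbers, calls made up 7.35% of tested loci in the first and second series and 3.79% in the last. In the former, 27 calls were higher in Isfahani and 14 in Ross 708, and in the last series 12 and 12. Over all tested rows the share was 5.21%. Among tested named rows it was 4.87% in the first series, with 99 calls higher in Isfahani and 156 in Ross 708. In the second series it was 5.5%, with 111 and 175. The last series held too few named rows to compare. These differences were not tested.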

How the data were processed

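Per the labels' protocols, RNA was extracted with Trizol, pooled from 3 birds per library and sequenced as paired reads of 150 bases. The submitters' processing notes list Cufflinks 2.2.1, HISAT2, Trimmomatic and FastQC 0.11.5, and the build galGal5. The scaffold names in the table are those of the Galgal4 assembly, so the build of the coordinates is uncertain and they are given as deposited. Annotation, filters and library scaling are each not given in the sources used here. All deposited FPKM, p-values, q-values and log2 fold changes are the authors' own, per the file headers, with 1 value per breed. No per-library value was used, so no test was computed here and depth is unknown.

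Loci were read by the dash in the gene column. Gaps between spans (0 where spans overlap), spans, series of numbers (a new series where the start falls back by over 200 kb) and log2 ratios with a pseudocount of 1 FPKM were computed with Python 3.11.15 and pandas 2.3.3. Gaps and series were tested on simulated data, the gaps against bedtools 2.31.1. The naming rule took the calls reaching 5 FPKM in a breed with the 12 highest and the 12 lowest ratios. It also took all calls listed at 0 in a breed, the 10 highest loci and the 6 widest calls. Added to these were the 6 highest loci over 20 kb from a named row and calls within 5 kb of a called named row. Tested loci on W or MT would have been taken, but there were none. Not every locus so taken is printed here. The members, lists and rules were chosen with earlier results of these data known. RefSeq (GRCg7b) gave gene names and order alone, a step chosen after values were seen. Alternatives were the q-value threshold, pseudocount, scaling, level, span, overlap, chromosome and distance limits. Whether pools came from separate flocks is not stated, so p-values speak at most for the spread between these pools. The enrichment sheets hold no unnamed locus and were not used.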

Additional observations from a re-analysis of the deposited data

How the results depend on the processing

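At a q-value threshold of 0.01, 16 loci were called higher in Ross 708 and 21 in Isfahani (3.11% of those tested), against 26, 39 and 5.46% at 0.05. With at least 1 FPKM in both breeds the calls were 10 and 22. Leaving out loci listed at 0 gave 24 higher in Isfahani, and leaving out the last series of numbers gave 14 higher in Ross 708; both settings were added after seeing the data. The other counts and shares were within 1.5 times, and rescaling to a common sum or centring changed no direction of a call. The median over all tested loci and those by chromosome group moved by at most 0.1 and kept their sign in the settings run for them. Medians by span were added after seeing the data. With a pseudocount of 0.1 they went to -0.55 for 200 up to 500 bases and to -0.33 for 500 up to 1000 bases. For 5000 bases or more the median turned from -0.0043 to 0.028 after rescaling, 0.046 after centring and 0.0020 without loci listed at 0. The single pair called in the same direction, at FOXO3, was lost at a threshold of 0.01 and under a minimum log2 ratio of 1 for both (0 pairs each), because the q-value or ratio of FOXO3 misses those limits. Leaving out unplaced scaffolds changed nothing, since no locus lay on them. Without loci under 300 bases 38 calls were higher in Isfahani. No paired analysis was possible because the table holds 1 value per breed, and for the same reason no replicate could be left out. Depth is unknown, so what it limits cannot be given.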

Other observations

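Loci listed at 0 in a breed were also found among those that were tested and not called: 18 in Ross 708 and 1 in Isfahani. The highest, XLOC_002568 (chromosome 1, 195073608 to 195073780), spans 172 bases and stood at 165 FPKM in Isfahani and at 0 in Ross 708, with q = 0.134 in the authors' deposited table. XLOC_007963 (chromosome 2, 19564199 to 19564387), of 188 bases, stood at 31.1 FPKM and 0 (q = 0.344). Of 6 tested loci under 200 bases, 3 were listed at 0, all in Ross 708.

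Further abundant loci were not called. XLOC_017997 stood at 316 FPKM in Isfahani against 238 in Ross 708, between SKOR2 and HDHD2, where RefSeq lists only IER3IP1. XLOC_009565 stood at 101 and 82.0 FPKM between AQP10 and UBAP2L, where it lists only HAX1. Farther than 20 kb from any named row, XLOC_010923 stood at 68.2 and 72.5 FPKM, in an interval from HDAC2 to LAMA4 that includes MARCKS among 12 listed genes, and XLOC_004302, of 217 bases, at 42.2 and 53.1 FPKM.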
